A study of Drosophila melanogaster with 4 samples.

Results

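A set of 7 developmental regulators that pattern the Drosophila embryo was examined in chromatin of adult fly heads: the signalling ligands wg, hh and dpp and the transcription factors hb, eve, slp1 and sna. The genes were taken by name, with no measured value in the rule, and are 7 of the 17872 genes of the RefSeq gene table for Drosophila melanogaster. Each was placed by its FlyBase release 5 interval, the release named in the headers of the deposited files. Regions in the gene or within 5 kb on either side were counted as its own. The intervals, and the deposited lists used, were chosen with earlier results of these data known. The mark measured was acetylation of histone H4 at lysine 8 (H4K8ac), measured by sequencing of immunoprecipitated chromatin (ChIP-seq). Flies of the wild-type strain Oregon-R, labelled mixed adult and raised in population cages, were sieved for their heads, and these gave 2 H4K8ac ChIP libraries and 2 input libraries with no treatment. For each ChIP replicate the authors listed enriched regions, termed clusters below, and per the labels 1 input library served each of these lists. A further file held their set made from both replicates, the combined set. The labels give neither the sex of the flies nor whether the replicates came from separate collections, so the spread between them may be technical.

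H4K8ac is a mark of open, transcribed chromatin. The patterning genes act in a cascade. Gap genes such as hb divide the embryo into broad domains, pair-rule genes such as eve and slp1 draw stripes, and segment polarity genes such as wg and hh hold the segment borders, while sna and dpp act along the dorsoventral axis. Several of them are used again later, wg, hh and dpp in the growth of imaginal discs and eve and hb in neurons. In many fly cell types such loci are repressed by Polycomb proteins, whose chromatin carries little histone acetylation.

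None of the 7 genes carried an H4K8ac cluster in either replicate. Coverage of the gene was 0% in replicate 1 and 0% in replicate 2 for each of wg, hh, dpp, hb, eve, slp1 and sna, so the median over the genes was 0% and the replicates did not differ. Of the arms that hold them, clusters took up 26.3% ± 0.734 of 2L, where wg, dpp, slp1 and sna lie, 27.7% ± 0.831 of 2R, where eve lies, and 29.4% ± 1.06 of 3R, where hh and hb lie (SD, n = 2). For comparison, every possible place of the same lengths on the same arms was examined. Of these places, 50.0% held at least 1 bp of a cluster in replicate 1 and 49.0% in replicate 2. This pools unequal lengths. At the lengths of slp1, sna and eve, 65.3%, 64.4% and 63.8% of places were free of clusters in replicate 1. In replicate 2 these shares were 66.5%, 65.6% and 64.8%, so an empty interval was the commoner outcome there. For hb, wg, hh and dpp they were 47.5%, 47.1%, 38.0% and 27.9% in replicate 1. The replicate 2 shares of these genes were 48.4%, 48.4%, 38.9% and 28.7%. None of the 7 genes was covered above its arm's percentage, as were 36.1% of the places in replicate 1 and 35.4% in replicate 2. The design has 1 group of 2 ChIP libraries and no second condition, so these are descriptions and no p-value is given.

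With 5 kb added on either side, dpp alone came near a cluster, and in replicate 2 only. The count was 0 of 7 genes in replicate 1, where 64.7% of places of those lengths touched a cluster, and 1 of 7 in replicate 2, where 63.6% did. No cluster lay within 2 kb of any of the genes in either replicate. The map of clusters around the genes shows them in otherwise cluster-free stretches of unequal width.

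**Figure D1:**
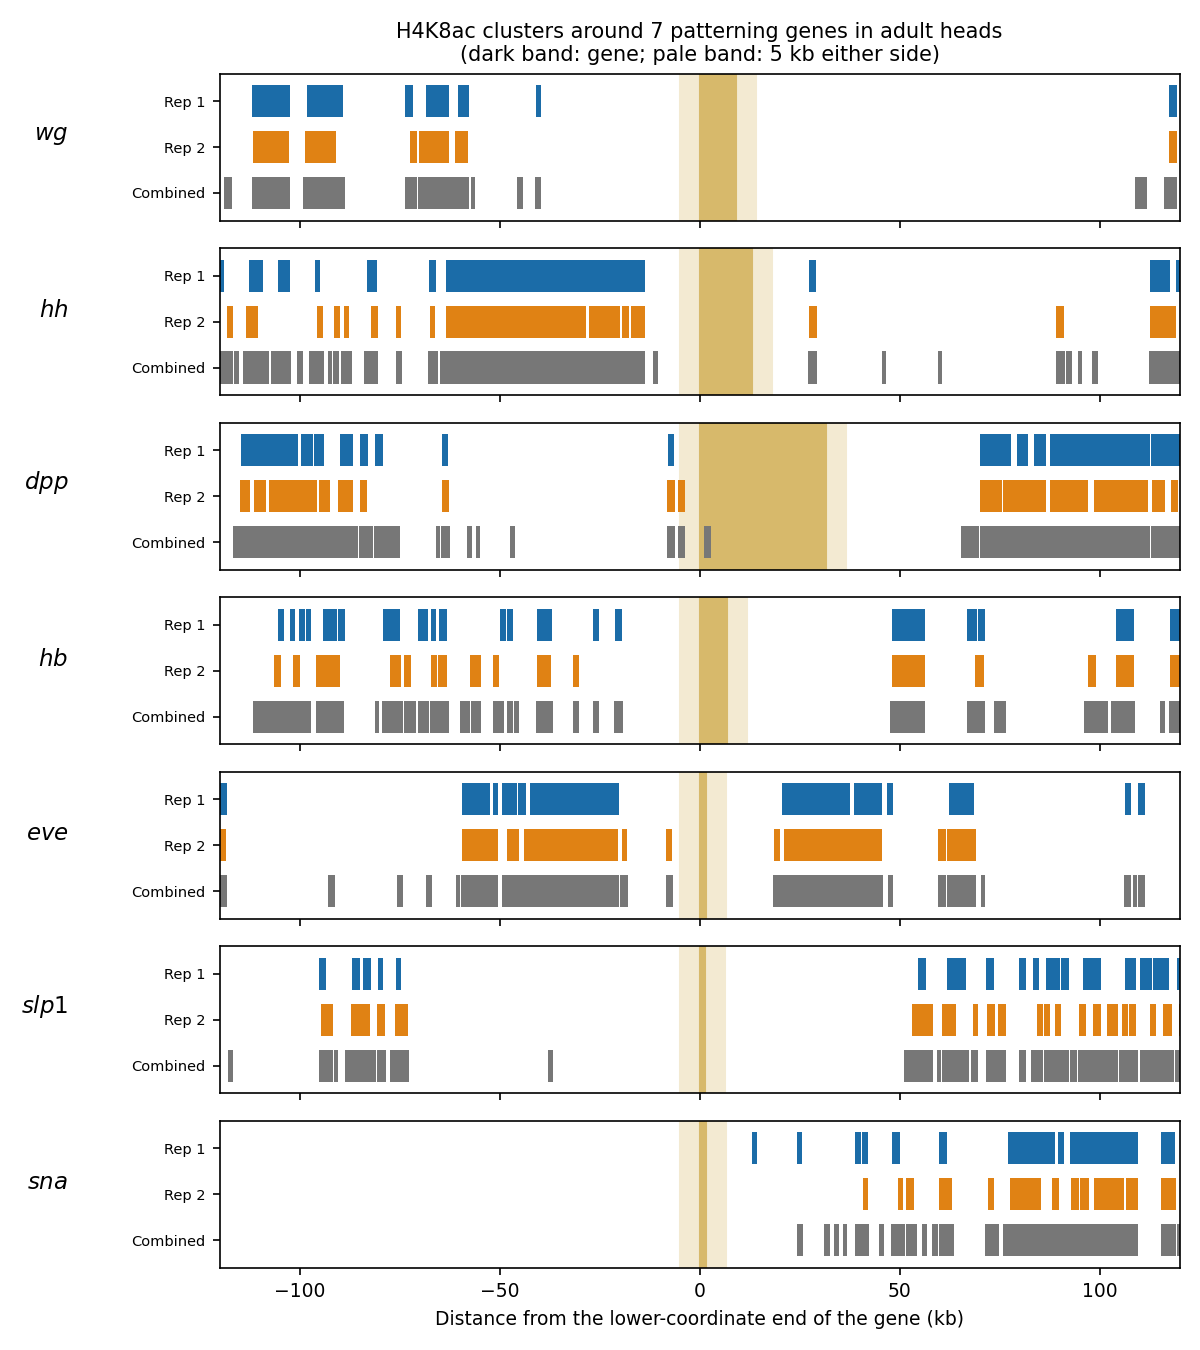
H4K8ac clusters (bars) of replicate 1, replicate 2 and the authors' combined set around each gene, with the distance in kb from the gene's lower-coordinate end on the x axis, the gene as a dark band and 5 kb either side as a pale band. In the replicates no bar touches a dark band, and only the dpp pale band is reached, in replicate 2.

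Among the ligand genes, wg lay deepest in cluster-free chromatin. This gene encodes the founding Wnt signal of the fly and spans 9094 bp at 2L 7307161 to 7316254. The nearest cluster was 39.6 kb away in replicate 1 and 57.8 kb away in replicate 2, on the lower-coordinate side in each. On the higher side the next cluster began 108.3 kb away, at 7424557, in replicate 1 and 108.2 kb away, at 7424504, in replicate 2. The replicates thus agreed on the higher edge of the gap, while on the lower side replicate 1 had a cluster of 1328 bp with a score of 0.61 that replicate 2 lacked. The score is the authors' own value per region and behaves in its values like the log2 of a ratio of whole numbers times a constant. The gap around wg measured 157.0 kb in replicate 1 and 175.2 kb in replicate 2. Gaps at least as long numbered 14 of 1668 on 2L in replicate 1 and 12 of 1628 in replicate 2, wg's own included, and held 14.2% and 13.9% of the bases of the arm. In the order of protein-coding genes of the release 6 table, other Wnt ligands sit beside it, with Wnt6 and Wnt10 the next genes on the higher side and CG31909 and Wnt4 the next on the lower side.

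The hedgehog gene hh, which encodes the signal that keeps wg expressed in neighbouring embryonic cells, lay in a narrower gap with a long acetylated domain beside it. It spans 13074 bp at 3R 18953947 to 18967020. Its gap measured 41.0 kb in replicate 1 and 40.9 kb in replicate 2, and gaps at least as long held 32.5% and 34.0% of the bases of 3R. The clusters closest to it ended 13.7 kb away in each replicate on the lower side and began 14.2 and 14.1 kb away on the higher side. The edges agreed to within 100 bp between the replicates, the closest agreement among the 7 genes. The lower-side neighbour was a single cluster of 49.7 kb in replicate 1, with a score of 0.93 above 93.1% of that list. In replicate 2 the same stretch was broken into several clusters, the closest of them 3506 bp long with a score of 0.59. Over 50 kb on this side, clusters covered 72.6% in replicate 1 and 69.5% in replicate 2, against 3.80% and 4.16% on the other side. Cluster coverage around hh was thus one-sided in each library.

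The dpp gene, which encodes a bone morphogenetic protein of the fly, is the longest of the 7, with 31452 bp at 2L 2428372 to 2459823, and had the closest clusters. Places of this length on 2L were free of clusters in 27.9% of cases in replicate 1 and 28.7% in replicate 2, so an empty stretch of this size is less common than one of the size of the shorter genes. The cluster at 2L 2420413 to 2422073 of replicate 1, 6.30 kb below the gene, had its counterpart at 2420326 to 2422092 in replicate 2. Their scores were 0.48 and 0.49, above 8.47% and 10.1% of their lists, so they were weak in each. Replicate 2 held another cluster closer in, at 2422989 to 2424739, with 1368 bp inside the 5 kb flank and a score of 0.45. It covered 3.30% of the gene with its flanks, against 0% in replicate 1, and gave the only entry in that window in a replicate list. On the higher side the first cluster was 38.7 kb away in replicate 1 and 38.6 kb in replicate 2, with scores of 0.87 and 0.81.

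Of the transcription factors, hb lay in a gap of intermediate width. It encodes a zinc finger protein of the gap class that also times neuroblast lineages, and it spans 6843 bp at 3R 4516702 to 4523544. The nearest cluster was 19.3 kb away in replicate 1 and 30.2 kb away in replicate 2. Replicate 2 had no cluster at the place of the replicate 1 cluster. These lower-side clusters scored low, at 0.49 and 0.31, above 9.72% and 0.442% of the lists. The higher edge was the same in both, with an 8.29 kb cluster 41.1 kb away in replicate 1 and an 8.41 kb cluster 41.1 kb away in replicate 2, scoring 0.84 and 0.93. The free stretch shared by the replicates around hb measured 67.3 kb.

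The pair-rule homeobox gene eve is a repressor later used in identified neurons. It lay between flanks rich in clusters, with the highest cluster coverage within 50 kb among the 7 genes in each replicate. It spans 1539 bp at 2R 5866746 to 5868284. In replicate 1 it lay between a 22.4 kb cluster 20.1 kb below and a 17.1 kb cluster 19.0 kb above, with scores of 0.81 and 0.95. In replicate 2 a 1701 bp cluster came within 6.80 kb, at 5858244 to 5859944, and replicate 1 had none there. Its score of 0.13 was the 2nd lowest among the 8140 clusters of replicate 2. On the higher side the first replicate 2 cluster was 1387 bp long and 17.1 kb away, with a score of 0.45. Clusters covered 53.6% of the 50 kb on either side together in replicate 1 and 55.4% in replicate 2, against 28.3% and 27.1% of arm 2R. The pattern around eve was therefore an empty core of 25.4 kb, shared by the replicates, inside a surround covered about as much in each library. This core is the gap of replicate 2, bounded by its short low-scoring clusters, while the gap of replicate 1 measured 40.7 kb. Its neighbours in the release 6 order are CG12134 on the lower side and TER94, an ATPase used in protein turnover, on the higher side.

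The other pair-rule gene, slp1, had no cluster near it on either side. It encodes a forkhead protein and spans 1425 bp at 2L 3825675 to 3827099. The nearest cluster was 53.3 kb away in replicate 1 and 51.6 kb away in replicate 2, and no cluster lay within 50 kb in either. The gap measured 129.2 and 126.1 kb, and gaps at least as long, its own included, numbered 21 on 2L in each replicate and held 18.5% and 19.7% of its bases. Its paralogue slp2 is the next protein-coding gene on the higher side in the release 6 order.

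The zinc finger repressor gene sna, needed for mesoderm and expressed in neuroblasts, lay near the edge of the widest gap. It spans 1639 bp at 2L 15477261 to 15478899. On the lower side the next cluster was 212.9 kb away in replicate 1 and 276.6 kb away in replicate 2. On the higher side it was 11.4 kb away in replicate 1 and 39.1 kb away in replicate 2, the least alike of the nearest distances. The replicate 1 cluster that made this difference was 1332 bp long, close to the shortest length in that list of 1301 bp, with a score of 0.51. The gap ranked 6th by length among the 1668 on 2L in replicate 1 and 3rd among the 1628 in replicate 2, and gaps at least as long held 7.78% and 4.76% of the arm. The next protein-coding genes on the lower side are CG4161 and wor, which encodes another protein of the Snail family, and on the higher side Tim17b2 and lace.

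Ordered by the mean distance to the nearest cluster, the genes ran from slp1 at 52.4 ± 1.14 kb through wg at 48.7 ± 12.9 kb, sna at 25.3 ± 19.6 kb, hb at 24.7 ± 7.68 kb, hh at 13.7 ± 0.00990 kb and eve at 12.9 ± 8.64 kb to dpp at 4.97 ± 1.89 kb (SD, n = 2). The replicate values of slp1 and wg overlapped, as did those of sna and hb and those of hh and eve. Those of wg and sna, of hb and hh, and of eve and dpp did not. Beyond neighbours in this order, the sna values of 11.4 and 39.1 kb also spanned those of hh and overlapped those of eve. In replicate 1 the distance was at least 10 kb for 6 of 7 genes, against 27.5% of the places on the same arms, and in replicate 2 for 5 of 7, against 28.6%. A gap of at least 50 kb held 5 of the 7 genes in each replicate, namely wg, dpp, hb, slp1 and sna, against 30.5% and 30.8% of the places. The places include those that touch a cluster, 50.0% in replicate 1 and 49.0% in replicate 2, at distance 0 and outside any gap. All 7 genes were empty in both replicates, so neither count is separate from that result. No comparison with empty places alone was made, and the shares below also use all places. Taken gene by gene, the distances were less unusual. The share of places of the gene's length that lay at least as far from a cluster was lowest for slp1, at 9.77% ± 1.03, and wg, at 10.04% ± 2.36, whose order differed between the replicates. With the higher-scoring 50% of clusters alone these shares were 20.4% for slp1 and 17.6% for wg, and in the combined set they were 7.80% and 6.39%. The highest mean share was that of eve, at 28.4% ± 13.4 (SD, n = 2).

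**Figure D2:**
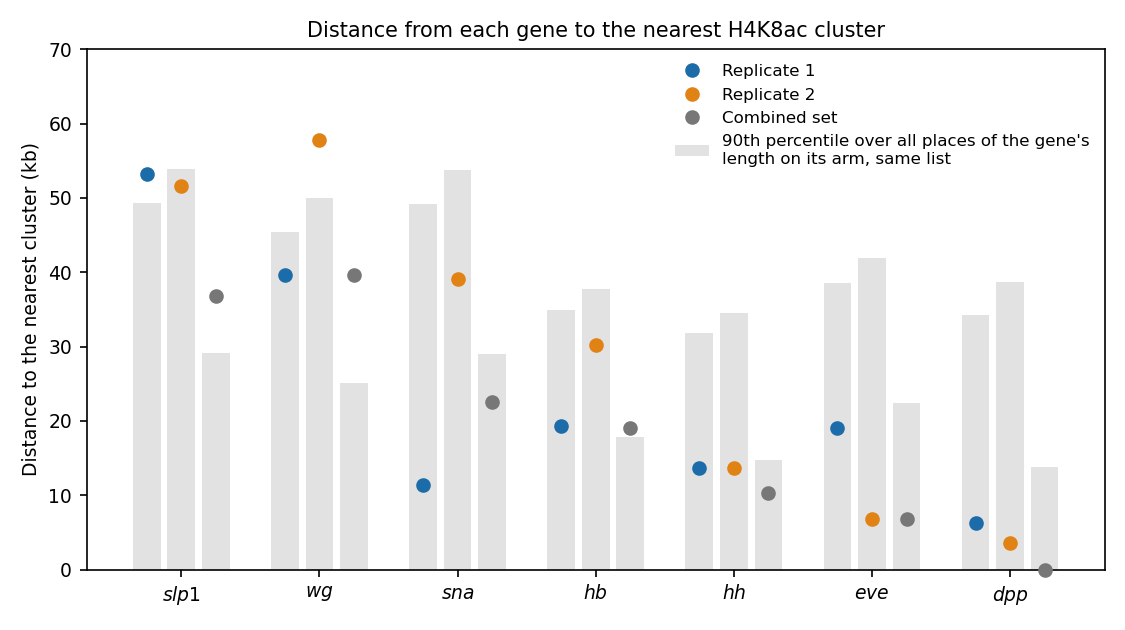
Distance in kb from each gene to its nearest H4K8ac cluster in replicate 1, replicate 2 and the combined set (points), with grey bars up to the 90th percentile of that distance over all places of the gene's length on its arm in the same list. Among replicate points, slp1 in replicate 1 at 53.3 kb and wg in replicate 2 at 57.8 kb rise above their bars.

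Mean coverage next to the genes was low and reached the level of the arms only at some distance. The genes were empty in both replicates, so low coverage in the bins next to them follows in part from that result. No profile around other empty places was computed. In the first 10 kb on either side, the mean over the 7 genes was 1.19% in replicate 1 and 3.73% in replicate 2, against 28.0% and 26.8% for their arms. From 10 to 20 kb it was 8.00% and 7.68%. From 20 to 30 kb it was 24.1% and 20.5%, a mean carried by few genes, since the median was 6.53% in replicate 1 and 0% in replicate 2. Between 40 and 50 kb the mean was 34.3% and 30.04%, above the arms in both lists. It was carried by hh, dpp, hb and eve, each above its arm in both replicates. In replicates 1 and 2, wg stood at 4.8% and 0%, slp1 at 0% and 0%, and sna at 12.3% and 10.2%, below their arm. The mean stayed between 20.1% and 35.9% in every bin from 50 to 100 kb of the replicates. The 2 lists come from the same strain and tissue, and the bins of a gene share its clusters, so this is a description without a test.

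**Figure D3:**
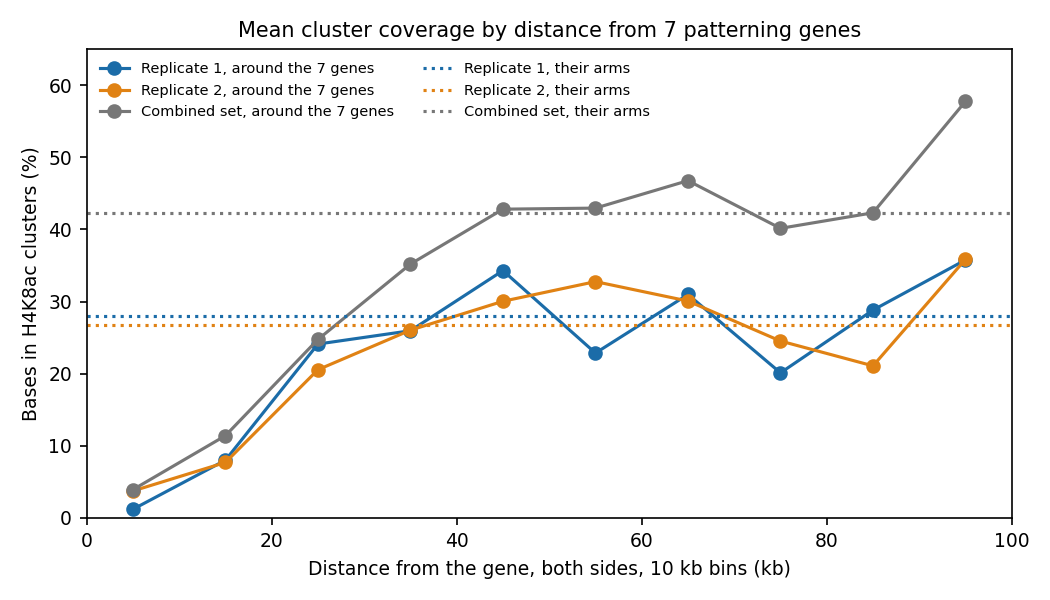
Mean percentage of bases in H4K8ac clusters over the 7 genes, in 10 kb bins by distance from the gene with both sides together, for each list (solid lines) and the mean coverage of the arms that hold the genes (dotted lines). In the bin next to the genes replicate 1 stands at 1.19%, replicate 2 at 3.73% and the combined set at 3.91%, below the dotted lines at 28.0%, 26.8% and 42.3%.

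Across the genes the surroundings spanned a wider range than they did between the replicates of any gene. Replicate values of dpp and hb overlapped, however, as did those of slp1 and wg. The 50 kb on both sides of slp1 were covered to 0% in each replicate, and those of wg to 0.664% ± 0.939. Around sna they were covered to 5.23% ± 3.24, around dpp to 13.1% ± 2.23 and around hb to 16.1% ± 3.77. Around hh the value was 37.5% ± 0.969, and around eve it was 54.5% ± 1.23 (SD, n = 2). Both hh and eve thus stood above their arms in this measure in the replicates, although their own intervals were empty. In the combined set hh did not, at 42.1% against 44.1% of 3R. From 20 to 40 kb the flanks of eve were covered almost throughout, at 98.1% and 97.6% in the 2 bins, whereas from 70 to 100 kb they held no cluster in either replicate. Those of dpp went the other way, with 0% between 10 and 30 kb and 71.7% between 90 and 100 kb.

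**Figure D4:**
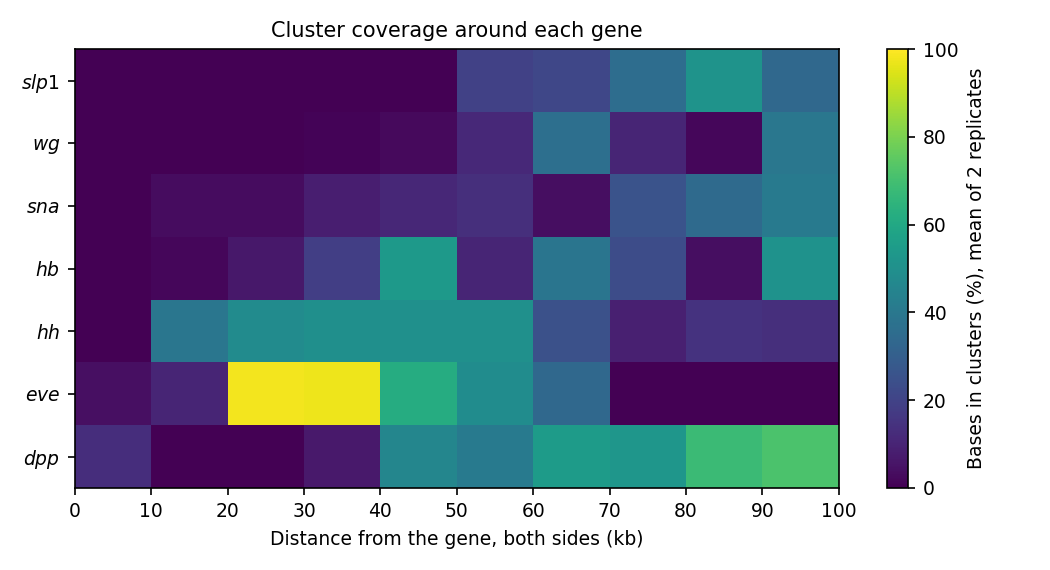
Percentage of bases in H4K8ac clusters around each gene, as the mean of 2 replicates, in 10 kb bins by distance from the gene with both sides together; the colour scale runs from 0% to 100%. The bins next to the gene are dark for all 7, at no more than 12.9% for dpp, while eve reaches 98.1% from 20 to 30 kb.

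In the authors' combined set, which listed 10650 clusters against 8148 and 8140 in the replicates, 1 of the 7 genes gained a cluster. The background was higher too, with 64.5% of places of the gene lengths touching a cluster in this set. The gene was dpp, with a cluster of 1860 bp at 2L 2429439 to 2431298 that began 1067 bp inside its lower-coordinate end and covered 5.91% of it. Its score was 0.37, above 18.8% of the combined list, and no replicate cluster touched it. The other 6 genes remained at 0%, also with 5 kb added on either side, where 77.8% of places touched a cluster. No gene was covered above its arm, as 45.6% of places were. The combined set stands for the same 2 libraries and is no independent support for the replicates. In it 5 of 7 genes lay at least 10 kb from a cluster, against 16.4% of places, and 4 of 7 in a gap of at least 50 kb, against 17.8%. These places again include those that touch a cluster. The nearest cluster to slp1 was then 36.8 kb away, 1026 bp long and in neither replicate list, and a cluster 10.3 kb from hh was 1236 bp long. Both were shorter than the 1301 bp minimum of the replicate lists. The combined set also repeated the weak cluster beside eve, with a score of 0.11.

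These results are calls, not levels of acetylation. The lists hold no signal for regions that were not called, and read depth is unknown. The genes slp1, eve and sna are barely longer than the 1301 bp minimum of a replicate cluster. In a sample of whole heads, few cells with an acetylated gene and little acetylation in many cells cannot be told apart. Head marker genes were not examined, since release 5 intervals were used here for the 7 genes alone, and mappability at these loci was not examined either.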

How the data were processed

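The authors deposited lists of regions in FlyBase release 5 coordinates, per the file headers, with 1 score each. Per the submitters' processing notes, the tools included Bowtie 0.12.7. How regions were called and replicates pooled is not given in the sources used here. No scale is stated for the deposited score. Raised as a power of 2, 100.0% of the scores of clusters up to 5 kb gave a constant times a ratio of whole numbers (relative tolerance 1e-12, denominators up to 20000), against at most 1.06% with base e or 10, so it was read as log2 of a scaled ratio. Inputs had no list, which leaves no control value at the genes, and depth is unknown, since no read totals are listed. Groups and replicate numbers came from the sample titles.

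Genes overlapped a cluster at 1 bp or more. Distance is the difference between the facing ends, and a gap is the stretch between neighbouring clusters. The comparison used every start position on the arm, with no random draw and no test. All 7 genes are named by rule. Gene intervals and lists were chosen with earlier results of these data known. The intervals come from the rule for the genes, not from the deposited files; 3 of 7 have the same length in the RefSeq release 6 table and the others differ by up to 664 bp. That table gave names and gene order for all 7. Other pathway genes and likeness to other genes were not analysed, for lack of release 5 intervals. Strand was not used. Calculations used Python 3.11.15 with numpy 2.4.6 and were tested on simulated data. The 1 region marked as depleted in the combined set was left out.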

Additional observations from a re-analysis of the deposited data

How the results depend on the processing

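The counts were repeated with the higher-scoring 50% of each list, with clusters joined across gaps under 500 bp, without clusters shorter than 2000 bp, without replicate 1 or 2, in the combined set, with other overlaps and flanks, and without 1 Mb at each arm end. Settings that only remove clusters, ask for more overlap or narrow the flank cannot raise a count of 0, so their unchanged values say nothing about stability. The number of genes with a cluster became 1 in the combined set, through dpp. The number with a cluster within 5 kb of the gene in both replicates was 0, and between 0 and 1 when a replicate was left out, again through dpp. It was 1 in the combined set, 1 with 10 kb either side and 1 when either replicate sufficed, a setting chosen after seeing the data. The median percent of the gene covered and the number of genes above their arm were also 0 in the combined set. Shares of places at least as far from a cluster were examined under alternatives after the data were seen. Among the higher-scoring 50% they were 20.4% for slp1, 17.6% for wg, 37.6% for hh, 22.6% for hb, 39.1% for eve, 23.8% for dpp and 22.0% for sna. In the combined set they were 7.80% for slp1, 6.39% for wg, 12.1% for hh, 9.52% for hb, 23.4% for eve and 12.5% for sna, and 100% for dpp, which then holds a cluster. Without 1 Mb at each arm end the shares were 8.35% for slp1, 8.64% for wg, 19.5% for hh and 15.2% for hb. For eve, dpp and sna they were 25.5%, 21.3% and 21.1%. Joining clusters across gaps under 500 bp left the shares of the main setting unchanged. The cause of these moves was not tested. No paired analysis was possible because the inputs have no list of their own and enter only through the ChIP lists. Unknown depth and the minimum cluster length limit what the empty intervals can show.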
